A study of Homo sapiens with 9 samples.

Results

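The genes described here are 32 genes of the G2 phase and mitosis, found by symbol among the 67140 genes of a count table from DMS273, an established human small cell lung cancer line. Each symbol was found once, all 32 genes are protein coding, and they lie on 14 chromosomes. RNA came from 3 groups of cells with 3 libraries each. Control cells carried a scrambled guide, ATG7 KO cells a guide against ATG7, and ATG7/SQSTM1 KO cells (called the double knockout below) guides against both ATG7 and SQSTM1, all delivered with the CRISPRv2 vector. ATG7 encodes an enzyme needed to build autophagosomes, and SQSTM1 encodes p62, a receptor that hands cargo to them. All groups grew in medium with 10% fetal bovine serum. The labels do not say whether a knockout is 1 clone or a pool, nor whether replicate libraries were made from separate cultures. If they were not, the p-values measure a technical spread between libraries only.

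A cell enters mitosis when cyclins A and B activate the kinase CDK1, and the Polo and Aurora kinases then build the spindle, on which kinetochores attach the chromosomes. The spindle checkpoint holds back the anaphase-promoting complex (APC/C) until every chromosome is attached. CDC20 then directs that complex to cyclin B and securin, and the cell divides. Most of these genes are known to be transcribed late in the cycle, held down in G1 by the DREAM complex and switched on by MYBL2, the MuvB core and FOXM1. Known promoter elements of this class are the cell cycle genes homology region (CHR) and CCAAT boxes bound by NF-Y. Small cell lung cancer is known for rapid division.

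The promoters are shown first because these genes are a textbook case of shared promoter letters. RefSeq promoter windows on GRCh38.p14, from 250 bases before to 50 after a transcript start, were matched by symbol for 27 of the 32 genes. AURKA, TPX2, TTK, BIRC5 and UBE2C were not in the table. Stretches of the 100 bases before the start follow for 4 genes, each lying upstream of the gene's GENCODE 29 model too. Capitals mark the CHR, searched as TTTGAA or TTCGAA, and the CCAAT box, searched as its name is spelled, on both strands. Matches on the other strand appear as TTCAAA for the CHR, with ATTGG for the CCAAT box. MKI67 (chr10:128126424-128126523, minus strand) and KIF11 (chr10:92593030-92593129, plus strand) were higher in ATG7 KO and lower in the double knockout. CKS2 (chr9:89311095-89311194, plus strand) was higher in both, and CENPF (chr1:214603095-214603194, plus strand) passed the test in no comparison.
MKI67: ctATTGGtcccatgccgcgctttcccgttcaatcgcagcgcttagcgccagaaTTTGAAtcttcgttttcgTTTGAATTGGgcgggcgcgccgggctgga
KIF11: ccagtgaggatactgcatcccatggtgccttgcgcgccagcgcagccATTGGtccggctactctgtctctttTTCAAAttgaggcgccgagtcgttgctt
CKS2: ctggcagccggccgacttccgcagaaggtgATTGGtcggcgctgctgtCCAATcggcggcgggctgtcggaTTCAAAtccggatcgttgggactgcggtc
CENPF: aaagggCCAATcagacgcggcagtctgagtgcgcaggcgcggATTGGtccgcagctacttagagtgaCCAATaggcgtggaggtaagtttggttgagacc

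In MKI67 the CHR nearest the start runs into a CCAAT box on the other strand, and its last letter is also the first of that box. KIF11 and CKS2 hold a CHR at 28 and 29 bases before the start, read from the other strand, with CCAAT boxes further upstream. CENPF has 3 CCAAT boxes in this stretch and no match to the searched CHR letters before its start.

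Shorter stretches of 30 bases, in genes that the results turn on, show the upstream CHR nearest the start. Where no CHR lay before the start, they show the nearest upstream CCAAT box. The first 6 are centred on a CHR and come from CCNB2 (chr15:59105105-59105134, plus strand), PLK1 (chr16:23678848-23678877, plus strand), CDC20 (chr1:43358904-43358933, plus strand), KIF23 (chr15:69414282-69414311, plus strand), CDCA8 (chr1:37692481-37692510, plus strand) and BUB1B (chr15:40161034-40161063, plus strand). The last 4 genes have no match to the searched CHR letters before their start. Their stretches are centred on a CCAAT box: CCNB1 (chr5:69167083-69167112, plus strand), CCNA2 (chr4:121823922-121823951, minus strand), KIF20A (chr5:138179033-138179062, plus strand) and NUSAP1 (chr15:41332805-41332834, plus strand).
CCNB2: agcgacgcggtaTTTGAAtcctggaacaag
PLK1: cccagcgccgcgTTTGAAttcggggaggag
CDC20: cgacggttggatTTTGAAggagCCAATagg
KIF23: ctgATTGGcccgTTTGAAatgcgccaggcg
CDCA8: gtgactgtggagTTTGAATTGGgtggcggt
BUB1B: gggaccgttaaaTTTGAAacttggcggcta
CCNB1: gccacgaacaggCCAATaaggagggagcag
CCNA2: gcgagcgctttcATTGGtccatttcaatag
KIF20A: cttccctatctgATTGGccgaacgaacgca
NUSAP1: aggcattttcaaCCAATggaagcgcggcat

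The CHR began 29 bases before the start in CCNB2 and PLK1 and 23 bases before it in CDCA8 and BUB1B. In CDC20 and KIF23 it lay further out, at 65 and 55 bases, with a CCAAT box beside it. Of the 16 genes with a CHR before the start, 9 had their nearest match 20 to 30 bases before it, a range chosen after the positions were seen. Over the whole window a CHR was found in 21 of the 27 genes (77.8%, exact 95% interval 57.7% to 91.4%), against 19.5% of 27305 genes in the table and 15.7% of the 12168 genes in it that were tested here. A CCAAT box was found in 22 of 27 (81.5%) against 42.6% of the tested genes, and both motifs together in 18 (66.7%) against 6.51%. At least 2 CCAAT boxes stood in 17 of the 27 windows (63.0%), against 15.8% of the tested genes. The letters GGCGG, searched on both strands as a GC-rich core of the element that often precedes a CHR, were in all 27 windows and also in 89.4% of the tested genes. Genes with several listed starts were counted once, as holding a motif if any of their windows did. A match describes letters and not a bound site. Other spellings of the CHR were not searched, so a gene without a match may still hold one.

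**Figure D1:**
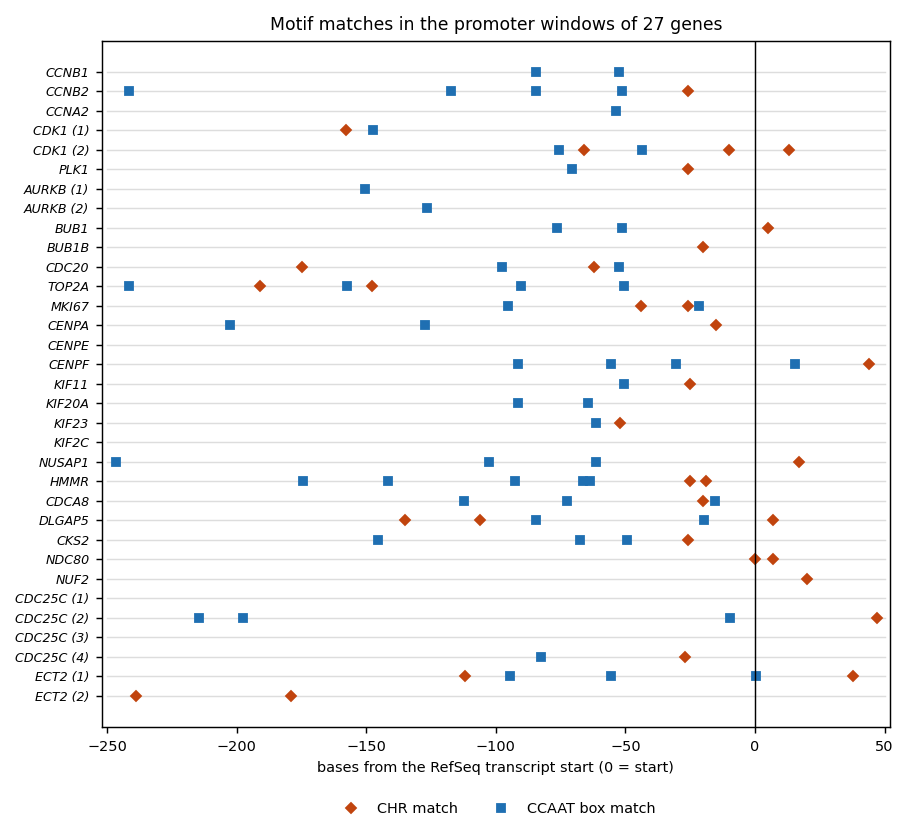
Positions of CHR (diamonds) and CCAAT box (squares) matches on either strand in the promoter windows of 27 genes, in bases from the RefSeq transcript start. Genes with several starts have a numbered line for each. A CHR match was found in 21 genes and a CCAAT box in 22, with neither found in the windows of CENPE and KIF2C.

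The labelled genotypes were checked first. ATG7 was at 28.1, 26.4 and 26.8 CPM (counts scaled to library size with TMM factors) in the control libraries, 12.0, 9.99 and 13.0 in ATG7 KO, and 11.2, 10.4 and 10.2 in the double knockout. SQSTM1 was at 380.2, 375 and 373 CPM in control, 388, 396 and 389 in ATG7 KO, and 55.3, 48.8 and 51.6 in the double knockout. Both genes were low in the libraries labelled as lacking them, although reads remained. The library totals ran from 28675576 to 34222098 counts, and each of the 32 genes had between 408 and 23309 counts in every library, so that none was near the detection limit. The genes together took 0.413% to 0.423% of the counts in control, 0.472% to 0.479% in ATG7 KO and 0.392% to 0.403% in the double knockout.

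Markers of neuroendocrine small cell lung cancer, the tumour type of this line, and of other cell types were read beside these values. Of 10 neuroendocrine markers, all 10 were called lower in ATG7 KO, and their summed level ran from 847 to 889 CPM in control, 511 to 522 in ATG7 KO and 948 to 976 in the double knockout. In the double knockout against control, 5 of the 10 were called higher and 3 lower. NEUROD1, a neuroendocrine transcription factor, averaged 194 CPM in control, 73.3 in ATG7 KO and 238 in the double knockout. UCHL1, the most abundant of the 10, averaged 390.8, 340.1 and 447.9 CPM in the same order. INSM1 averaged 89.25, 30.58 and 73.23 CPM and NCAM1 39.02, 6.642 and 21.7 CPM, both below control in the double knockout. Of 9 fibroblast markers, 8 were tested and 5 were higher in ATG7 KO, with a summed level of 186 to 201 CPM in control, 665 to 704 in ATG7 KO and 336 to 357 in the double knockout. COL3A1, LUM and COL1A1, which encode collagens and a collagen-binding proteoglycan of the matrix, averaged 75.1, 79.6 and 19.7 CPM in control, 327, 224.8 and 99.1 in ATG7 KO and 149.6, 108.6 and 35 in the double knockout. DCN, another matrix proteoglycan, averaged 7.50, 21.2 and 32.6 CPM in the same order. The surface markers THY1 and PDGFRB reached at most 0.223 and 1.37 CPM, and PDGFRA at most 5.11. Of 7 blood cell markers, 3 were tested and 3 stood at 0 in every library, with sums of 2.44 to 3.23, 8.42 to 8.82 and 2.47 to 3.50 CPM in the same order of groups. Of 6 airway and alveolar markers, 1 (TP63) was tested and SCGB1A1 was at 0 in every library, with sums of 3.05 to 3.69, 9.38 to 9.42 and 2.71 to 2.93 CPM. The part of these shifts in the results below was not tested. Counts from mitochondrial genes made up 3.87% to 6.04% of a library, and their part was not tested either.

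Across the 32 genes, ATG7 KO stood above control and the double knockout stood below both. The summed level of the genes was 4101, 4177 and 4117 CPM in control, 4869.7, 4835 and 4837 in ATG7 KO and 3907, 3995 and 3957 in the double knockout. The 3 groups did not overlap in this sum. The means were 4132 ± 39.9 CPM (SD, n = 3), 4847 ± 19.4 and 3953 ± 43.9 in that order. TOP2A, CENPF and MKI67 are long or abundant transcripts that weigh heavily in the sum, so the median over genes was read too. Relative to the control mean of each gene, the median log2 level was 0.24, 0.18 and 0.20 in the ATG7 KO libraries and -0.13, -0.10 and -0.11 in the double knockout libraries. From 29 to 30 of the 32 genes were above their control mean in each ATG7 KO library, and 7 to 8 were in each double knockout library. These are bulk samples, in which more cells in G2 and mitosis and more RNA of these genes per cell cannot be told apart.

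**Figure D2:**
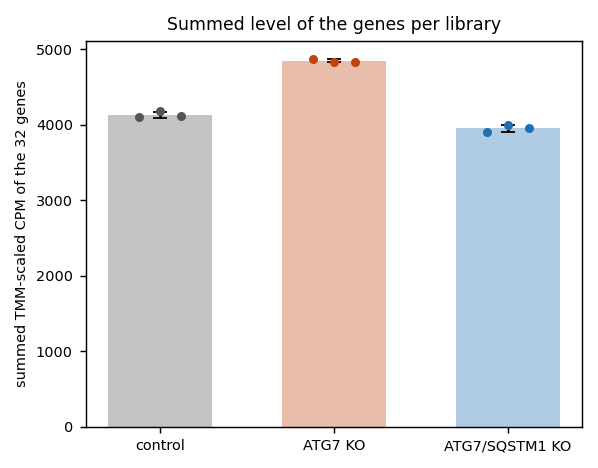
Summed TMM-scaled CPM of the 32 genes in each library (points), with the group mean (bars) and SD (error bars, n = 3). The ATG7 KO libraries lie at 4835 to 4869.7, above the control libraries at 4101 to 4177, and the double knockout libraries lie at 3907 to 3995.

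In ATG7 KO against control, 25 of the 32 genes rose, 1 (NUSAP1) fell and 6 did not pass the test, which asked for an edgeR adjusted p under 0.05 over all genes tested. The background was wide, since 56.7% of the 18847 tested genes were called in this comparison, 28.4% higher and 28.3% lower. Highly expressed genes were called more often. Among the 8810 genes whose mean level lay within the range of the 32, 71.1% were called and 43.1% were higher. The median log2 change of the 32 genes was 0.20, beside -0.02 for all tested genes, and single values ran from -0.09 to 0.47. No gene moved by 1.5-fold. The 3 ATG7 KO libraries did not overlap the 3 control libraries for 26 of the 32 genes, as for 62.4% of all tested genes.

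In the double knockout against control, 17 genes fell, 5 rose (CDK1, BUB1, NUSAP1, CKS2 and ECT2) and 10 did not pass. Here 38.6% of the tested genes were called, 19.0% higher and 19.6% lower, and among genes in the same range of levels 54.1% were called and 28.5% were lower. The median log2 change of the 32 genes was -0.11, beside -0.01 for all tested genes, with a range from -0.42 to 0.29. The libraries of the compared groups did not overlap for 26 genes, as for 48.8% of all tested genes.

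In the double knockout against ATG7 KO, 28 genes fell, 1 (NUSAP1) rose and 3 did not pass. In this comparison 60.5% of the tested genes were called, 30.5% higher and 29.9% lower, and 45.2% of the genes in the same range of levels were lower. The median log2 change was -0.32, beside 0.02 for all tested genes, with a range from -0.62 to 0.22. The libraries did not overlap for 29 genes, as for 65.9% of all tested genes. The 3 comparisons share libraries, so their calls are not independent of each other, and the values of each are given side by side below.

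**Figure D3:**
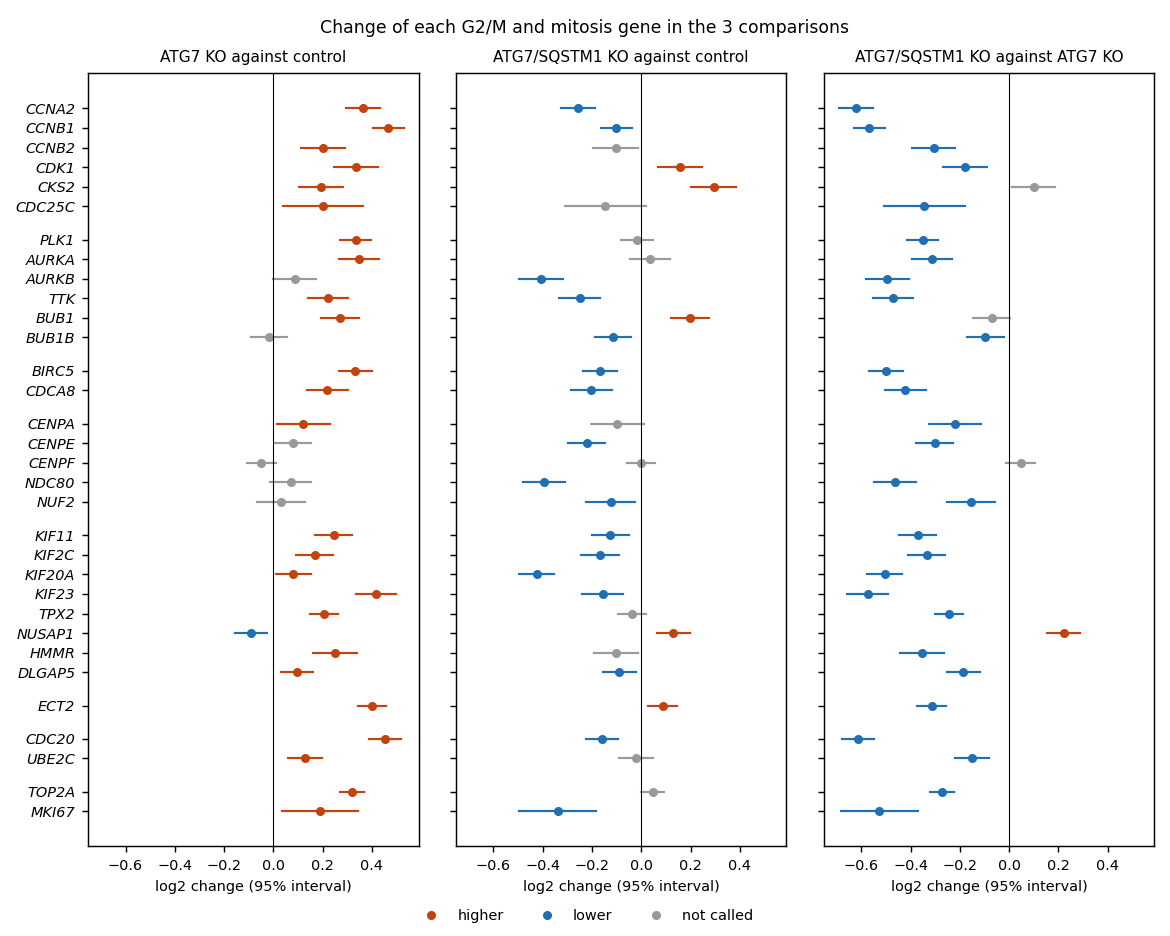
Log2 change of each of the 32 genes in the 3 comparisons, ordered by role, with unadjusted 95% intervals. Colour shows the call (adjusted p under 0.05): 25 genes are higher in ATG7 KO than in control, 17 are lower in the double knockout than in control, and 28 are lower in the double knockout than in ATG7 KO.

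The mitotic cyclins, their kinase and its activators all rose in ATG7 KO, 6 of 6. CCNB1, which encodes cyclin B1, was at 182, 174 and 180.3 CPM in the control libraries, 255, 242 and 244 in ATG7 KO and 168, 163 and 168 in the double knockout. Its ATG7 KO libraries were all higher than its control libraries, and its double knockout libraries were all lower than both. The rise in ATG7 KO was the largest of the 32, a log2 change of 0.47 ± 0.030 (SE), or 38.2% (edgeR adjusted p = 1.50e-11). Against ATG7 KO the double knockout fell by 0.57 ± 0.030 (adjusted p = 5.23e-13), while against control it fell by 0.10 ± 0.030 (adjusted p = 9.67e-03). That last call was lost without control replicate 1 (adjusted p = 0.0738) and without double knockout replicate 2 (adjusted p = 0.050), both in edgeR.

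CCNA2, which encodes cyclin A2, active in S phase and at mitotic entry, was at 109, 115 and 112 CPM in control, 141, 143 and 147 in ATG7 KO and 91.4, 96.0 and 92.9 in the double knockout. None of the 3 groups overlapped. CCNA2 rose by 0.37 ± 0.033 in ATG7 KO (edgeR adjusted p = 4.69e-09) and fell by 0.26 ± 0.033 in the double knockout against control (adjusted p = 2.64e-06). Between the knockouts it fell by 0.62 ± 0.033, the largest fall of the 32 (edgeR adjusted p = 7.41e-13). CCNB2, which encodes cyclin B2, ran from 74.8 to 77.5 CPM in control, 85.2 to 90.4 in ATG7 KO and 65.3 to 74.0 in the double knockout. It rose by 0.20 ± 0.043 in ATG7 KO, and its log2 difference of -0.10 ± 0.043 in the double knockout did not pass (edgeR adjusted p = 0.0596), although it did without double knockout replicate 3 (adjusted p = 0.0249).

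CDK1, the kinase that the mitotic cyclins activate, was at 98.8, 85.7 and 89.8 CPM in control, 115, 118 and 114 in ATG7 KO and 103, 99.3 and 104 in the double knockout. Control replicate 1 was close to the double knockout libraries, but no control library reached them. CDK1 rose by 0.34 ± 0.042 in ATG7 KO (edgeR adjusted p = 9.97e-07) and by 0.16 ± 0.043 in the double knockout (adjusted p = 5.96e-03), and it was lower by 11.7% in the double knockout than in ATG7 KO, having dropped by 0.18 ± 0.042 (adjusted p = 1.01e-03). CKS2, a small subunit that binds CDK1, was at 109, 110.2 and 111 CPM in control, 134, 121 and 121 in ATG7 KO and 126, 140.4 and 137 in the double knockout. Both knockouts were above control, and their libraries overlapped each other. The change of 0.29 ± 0.042 in the double knockout was the largest rise among the 32 in that comparison (edgeR adjusted p = 2.23e-05), beside 0.19 ± 0.043 in ATG7 KO (adjusted p = 7.32e-04). The log2 difference between the knockouts, 0.10 ± 0.042, did not pass (edgeR adjusted p = 0.0525), but it did without ATG7 KO replicate 1 (adjusted p = 4.73e-03) and without double knockout replicate 1 (adjusted p = 8.66e-03).

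CDC25C, the phosphatase that removes the inhibitory phosphates from CDK1, had the lowest level of the 32, with 14.0 to 17.7 CPM in control, 17.6 to 19.5 in ATG7 KO and 14.0 to 14.8 in the double knockout. Its control libraries varied most, with a coefficient of variation of 11.6% against a median of 2.38% over the 32 genes, and they overlapped both knockouts. CDC25C rose by 0.20 ± 0.078 in ATG7 KO (edgeR adjusted p = 0.0343). The call was lost without control replicate 1 (edgeR adjusted p = 0.202), ATG7 KO replicate 1 (adjusted p = 0.115) or ATG7 KO replicate 3 (adjusted p = 0.0504). Without control replicate 1, CDC25C instead passed as lower in the double knockout than in control, at -0.23 on the log2 scale (edgeR adjusted p = 0.0228), where all 9 libraries gave -0.15.

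Among the 6 mitotic kinases, 4 rose in ATG7 KO and AURKB and BUB1B did not pass. PLK1, the Polo kinase of mitotic entry, spindle poles and cytokinesis, was at 149, 156 and 156 CPM in control, 191, 195 and 195 in ATG7 KO and 147, 156 and 153 in the double knockout. The double knockout libraries lay within or just under the control range, well below the ATG7 KO libraries. PLK1 rose by 0.33 ± 0.031 in ATG7 KO (edgeR adjusted p = 5.46e-09), whereas the log2 difference between the double knockout and control was -0.02 with an interval of -0.08 to 0.05 (adjusted p = 0.698). AURKA, the Aurora kinase of the spindle poles, had a similar arrangement, with 95.8 to 107 CPM in control, 130.3 to 132 in ATG7 KO and 103 to 109 in the double knockout. Its log2 changes were 0.35 ± 0.039 in ATG7 KO, which passed, and 0.04 ± 0.039 in the double knockout, which did not.

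AURKB, the Aurora kinase of the chromosomal passenger complex, was at 80.6, 82.2 and 81.5 CPM in control, 90.0, 81.6 and 88.0 in ATG7 KO and 57.8, 63.5 and 63.0 in the double knockout. ATG7 KO replicate 2 sat among the control libraries, and all 3 double knockout libraries were far below both other groups. AURKB fell by 0.41 ± 0.043 in the double knockout against control, or 24.6% (edgeR adjusted p = 1.27e-07). Its log2 difference of 0.09 ± 0.042 in ATG7 KO did not pass (edgeR adjusted p = 0.0812), though it did without ATG7 KO replicate 2 or double knockout replicate 1, at adjusted p from 0.014 to 0.0463. TTK, also called MPS1, the kinase that starts spindle checkpoint signalling, was at 86.3, 89.1 and 83.9 CPM in control, 106, 97.1 and 98.8 in ATG7 KO and 70.9, 72.9 and 74.2 in the double knockout. The 3 groups were apart. TTK rose by 0.22 ± 0.039 in ATG7 KO (edgeR adjusted p = 4.71e-05) and fell by 0.25 ± 0.039 in the double knockout (adjusted p = 2.75e-05).

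BUB1 and BUB1B encode related checkpoint proteins, the kinase BUB1 and the pseudokinase BUBR1, and their values are set side by side. BUB1 was at 89.9, 93.0 and 93.1 CPM in control, 112, 106 and 115 in ATG7 KO and 104, 109 and 103 in the double knockout. Both knockouts were above control. BUB1 rose by 0.27 ± 0.037 in ATG7 KO (edgeR adjusted p = 1.81e-06) and by 0.20 ± 0.037 in the double knockout (adjusted p = 1.72e-04). The log2 difference between the knockouts, -0.07 ± 0.036, did not pass (edgeR adjusted p = 0.0947), but it did without ATG7 KO replicate 2 (adjusted p = 0.0154) and without double knockout replicate 2 (adjusted p = 0.0302). BUB1B was at 117, 116 and 113 CPM in control, 117, 108 and 117 in ATG7 KO and 105, 107 and 109 in the double knockout. Its ATG7 KO libraries spanned the control range, and the double knockout libraries were lower than control. BUB1B fell by 0.11 ± 0.035 in the double knockout (edgeR adjusted p = 0.0132), a call lost without control replicate 1 (adjusted p = 0.0669) or double knockout replicate 1 (adjusted p = 0.0515). Its fall of 0.10 ± 0.035 against ATG7 KO was lost without ATG7 KO replicate 1 or 3 or double knockout replicate 1, at edgeR adjusted p from 0.0621 to 0.0876.

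The chromosomal passenger complex carries AURKB to centromeres and the midzone. BIRC5, which encodes its subunit survivin, was at 126, 123 and 131 CPM in control, 164, 158 and 157 in ATG7 KO and 111, 112 and 116 in the double knockout. CDCA8, which encodes borealin, was at 64.2, 69.1 and 70.7 CPM in control, 80.3, 77.8 and 79.4 in ATG7 KO and 57.7, 61.0 and 58.5 in the double knockout. Both genes were highest in ATG7 KO and lowest in the double knockout with no overlap of libraries. BIRC5 rose by 0.33 ± 0.032 in ATG7 KO (edgeR adjusted p = 1.43e-08), fell by 0.17 ± 0.033 in the double knockout against control and fell by 0.50 ± 0.033 against ATG7 KO. CDCA8 rose by 0.22 ± 0.040 (edgeR adjusted p = 6.65e-05), fell by 0.20 ± 0.040 and fell by 0.42 ± 0.040 in the same comparisons. INCENP, the scaffold of the same complex and not among the 32, instead fell in both knockouts, from a mean of 64.1 CPM in control to 54.1 in ATG7 KO and 50.3 in the double knockout.

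The 5 kinetochore and centromere genes had a median log2 change of 0.07 in ATG7 KO. There CENPA alone of the 5 was called, and 3 fell in the double knockout against control. NDC80, the subunit of the outer kinetochore complex that grips microtubules, was at 46.6, 48.7 and 46.7 CPM in control, 50.2, 49.4 and 49.5 in ATG7 KO and 34.7, 36.3 and 37.0 in the double knockout. The double knockout libraries were well below the others. NDC80 fell by 0.39 ± 0.041 against control, or 23.9% (edgeR adjusted p = 1.20e-07), and its log2 difference of 0.07 ± 0.040 in ATG7 KO did not pass (adjusted p = 0.147). NUF2, the direct partner of NDC80, was at 35.6, 36.5 and 37.0 CPM in control, 38.3, 37.8 and 35.3 in ATG7 KO and 34.6, 31.7 and 33.7 in the double knockout. Its libraries were lower in the double knockout than in control by a small margin. NUF2 fell by 0.12 ± 0.047 (edgeR adjusted p = 0.0413), and the call was lost when any of 7 libraries was left out (adjusted p from 0.0504 to 0.185), with ATG7 KO replicate 2 and double knockout replicate 1 the exceptions.

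CENPE, the kinesin that moves chromosomes to the spindle equator, ran from 68.8 to 71.8 CPM in control, 72.4 to 75.4 in ATG7 KO and 59.0 to 60.5 in the double knockout. It fell by 0.22 ± 0.036 in the double knockout (edgeR adjusted p = 3.51e-05). Its log2 difference of 0.08 ± 0.035 in ATG7 KO did not pass (adjusted p = 0.0557), but it did without control replicate 2, ATG7 KO replicate 1 or double knockout replicate 1 (edgeR adjusted p from 0.0306 to 0.048). CENPA, the histone variant that marks centromeres, ran from 25.9 to 26.6 CPM in control, 28.0 to 29.7 in ATG7 KO and 24.0 to 25.4 in the double knockout. Its rise of 0.12 ± 0.051 in ATG7 KO (edgeR adjusted p = 0.0476) was lost when any control library, ATG7 KO replicate 2 or ATG7 KO replicate 3 was left out (adjusted p from 0.050 to 0.117). CENPA shares exonic bases on the same strand with SLC35F6, which averaged 29.8 CPM in control, 45.8 in ATG7 KO and 27.5 in the double knockout, and the part of those reads was not tested.

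CENPF, a large protein of the nuclear matrix and kinetochore, was at 319.8, 323 and 306 CPM in control, 296, 307 and 313 in ATG7 KO and 318, 315 and 314 in the double knockout. The libraries of control and both knockouts lay close together, and no comparison passed. The intervals of the log2 change were -0.11 to 0.01 in ATG7 KO, -0.06 to 0.06 in the double knockout and -0.01 to 0.11 between the knockouts. CENPF passed as lower in ATG7 KO without control replicate 3 (edgeR adjusted p = 0.0465), and when scaled by library totals alone (adjusted p = 8.85e-03).

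Among the 8 spindle motors and spindle-associated proteins, 7 rose in ATG7 KO and NUSAP1 fell. KIF23, a motor of the central spindle and cytokinesis, was at 65.6, 65.6 and 61.3 CPM in control, 86.4, 88.6 and 82.3 in ATG7 KO and 56.6, 58.1 and 58.1 in the double knockout. The groups were apart, with ATG7 KO highest. KIF23 rose by 0.42 ± 0.039 in ATG7 KO, or 33.6% (edgeR adjusted p = 7.01e-09), fell by 0.16 ± 0.039 in the double knockout against control and fell by 0.57 ± 0.039 against ATG7 KO (adjusted p = 3.66e-11). KIF20A, a motor that brings the passenger complex to the midzone, was at 95.6, 98.1 and 93.4 CPM in control, 99, 102 and 103 in ATG7 KO and 70.7, 71.2 and 72.0 in the double knockout. Control and ATG7 KO were nearly level and the double knockout stood well below both. Its fall of 0.42 ± 0.034 in the double knockout, or 25.5%, was the largest of the 32 against control (edgeR adjusted p = 2.61e-09). The rise of 0.08 ± 0.033 in ATG7 KO (edgeR adjusted p = 0.0441) was lost without control replicate 1 or 3 or ATG7 KO replicate 2 or 3 (adjusted p from 0.0546 to 0.162).

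KIF11, the motor that pushes the spindle poles apart, was at 104, 106 and 107 CPM in control, 122, 127 and 127 in ATG7 KO and 93.2, 102 and 95.5 in the double knockout. The groups did not overlap. It rose by 0.24 ± 0.036 in ATG7 KO (edgeR adjusted p = 5.09e-06) and fell by 0.13 ± 0.036 in the double knockout (adjusted p = 7.64e-03). KIF2C, a kinesin that takes microtubule ends apart at centromeres, was at 90.6, 88.8 and 90.2 CPM in control, 101, 104 and 98.6 in ATG7 KO and 77.1, 84.0 and 79.1 in the double knockout. These groups were apart as well. KIF2C rose by 0.17 ± 0.036 (edgeR adjusted p = 4.75e-04) and fell by 0.17 ± 0.037 (adjusted p = 9.32e-04), changes of like size in opposite directions. TPX2, which activates AURKA on the spindle, ran from 218 to 221 CPM in control, 246 to 261 in ATG7 KO and 212 to 215 in the double knockout. It rose by 0.20 ± 0.027 in ATG7 KO (edgeR adjusted p = 1.53e-06), and its log2 difference of -0.04 ± 0.028 in the double knockout did not pass.

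HMMR, a spindle-pole protein, ran from 54.7 to 57.1 CPM in control, 64.8 to 68.7 in ATG7 KO and 49.2 to 54.8 in the double knockout. It rose by 0.25 ± 0.042 in ATG7 KO (edgeR adjusted p = 3.01e-05), and its log2 difference of -0.10 ± 0.043 in the double knockout did not pass (adjusted p = 0.0656), except without double knockout replicate 2 (adjusted p = 0.0194). DLGAP5, a microtubule-bundling protein of the mitotic spindle, was at 114, 114 and 115 CPM in control, 124, 119 and 123 in ATG7 KO and 106, 110.0 and 106 in the double knockout. The shifts were small but no library crossed between groups. DLGAP5 rose by 0.10 ± 0.031 in ATG7 KO (edgeR adjusted p = 0.0117), which did not pass when scaled by library totals alone (adjusted p = 0.159). Its fall of 0.09 ± 0.031 in the double knockout (edgeR adjusted p = 0.0295) was lost without any single control library or without double knockout replicate 1 or 3 (adjusted p from 0.0524 to 0.0837).

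NUSAP1, a nucleolar and spindle-associated microtubule-binding protein, went the other way from most of the 32. It was at 162, 163 and 159.8 CPM in control, 156, 146 and 153 in ATG7 KO and 176, 182 and 173 in the double knockout. The ATG7 KO libraries were lowest, the double knockout libraries highest, and no group overlapped another. NUSAP1 fell by 0.09 ± 0.032 in ATG7 KO (edgeR adjusted p = 0.0184), a call lost without control replicate 1 (adjusted p = 0.0823), control replicate 2 (adjusted p = 0.0537), ATG7 KO replicate 2 (adjusted p = 0.168), ATG7 KO replicate 3 (adjusted p = 0.0638) or the filter on low counts (adjusted p = 0.0822). It rose by 0.13 ± 0.031 in the double knockout against control (edgeR adjusted p = 2.20e-03) and by 0.22 ± 0.032, or 16.6%, against ATG7 KO (adjusted p = 2.99e-06). In GENCODE 29 NUSAP1 shares 1787 of its 2875 exonic bases on the same strand with AC087721.2, which averaged 3.99 CPM in control, 0.179 in ATG7 KO and 0.561 in the double knockout. The sources do not state how reads in the shared bases were assigned, and their part in these values was not tested.

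ECT2, the exchange factor that activates RhoA for the cleavage furrow, was at 163, 163 and 167 CPM in control, 217, 220.1 and 213 in ATG7 KO and 170.4, 178 and 174 in the double knockout. The ATG7 KO libraries stood well above the rest, and the double knockout libraries were slightly above control. ECT2 rose by 0.40 ± 0.028 in ATG7 KO (edgeR adjusted p = 7.69e-11) and by 0.09 ± 0.028 in the double knockout (adjusted p = 0.0188), and fell by 0.31 ± 0.028 between the knockouts. The small rise in the double knockout was lost without control replicate 2 (edgeR adjusted p = 0.0518), double knockout replicate 2 (adjusted p = 0.107) or double knockout replicate 3 (adjusted p = 0.0515).

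CDC20, the coactivator that turns the APC/C on at anaphase, was at 176, 178 and 167 CPM in control, 236, 235 and 242 in ATG7 KO and 154, 161 and 152 in the double knockout. The groups were clearly apart. CDC20 rose by 0.45 ± 0.031 in ATG7 KO, or 36.8% (edgeR adjusted p = 5.61e-11), and fell by 0.16 ± 0.031 in the double knockout against control (adjusted p = 3.05e-04). Between the knockouts it fell by 0.61 ± 0.031, or 34.6% (edgeR adjusted p = 3.41e-13). A processed copy, CDC20P1, drew 541 counts over all libraries against 52408 for CDC20. UBE2C, the ubiquitin-conjugating enzyme of the APC/C, ran from 91.0 to 96.1 CPM in control, 101 to 104 in ATG7 KO and 90.8 to 94.2 in the double knockout, where its log2 difference from control was -0.02 ± 0.034. It rose by 0.13 ± 0.034 in ATG7 KO (edgeR adjusted p = 2.51e-03).

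TOP2A, the topoisomerase that untangles sister chromatids, had the highest CPM of the 32, at 604 to 609.6 in control, 744 to 763 in ATG7 KO and 614 to 634 in the double knockout. It rose by 0.32 ± 0.023 in ATG7 KO (edgeR adjusted p = 1.07e-10) and its log2 difference of 0.05 ± 0.023 in the double knockout did not pass (adjusted p = 0.120), although the libraries did not overlap. MKI67, which encodes the proliferation marker Ki-67 of the chromosome surface, was at 262, 306 and 271 CPM in control, 302, 339 and 314 in ATG7 KO and 214, 228 and 221 in the double knockout. Its control libraries spread widely, with replicate 2 above the lowest ATG7 KO library, and the double knockout libraries were below all others. MKI67 rose by 0.19 ± 0.066 in ATG7 KO (edgeR adjusted p = 0.0431), but the call was lost when any of 7 libraries was left out (adjusted p from 0.054 to 0.117), with control replicate 2 and ATG7 KO replicate 1 the exceptions. It fell by 0.34 ± 0.066 in the double knockout against control (edgeR adjusted p = 5.04e-03) and by 0.53 ± 0.066 against ATG7 KO (adjusted p = 2.26e-04).

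**Figure D4:**
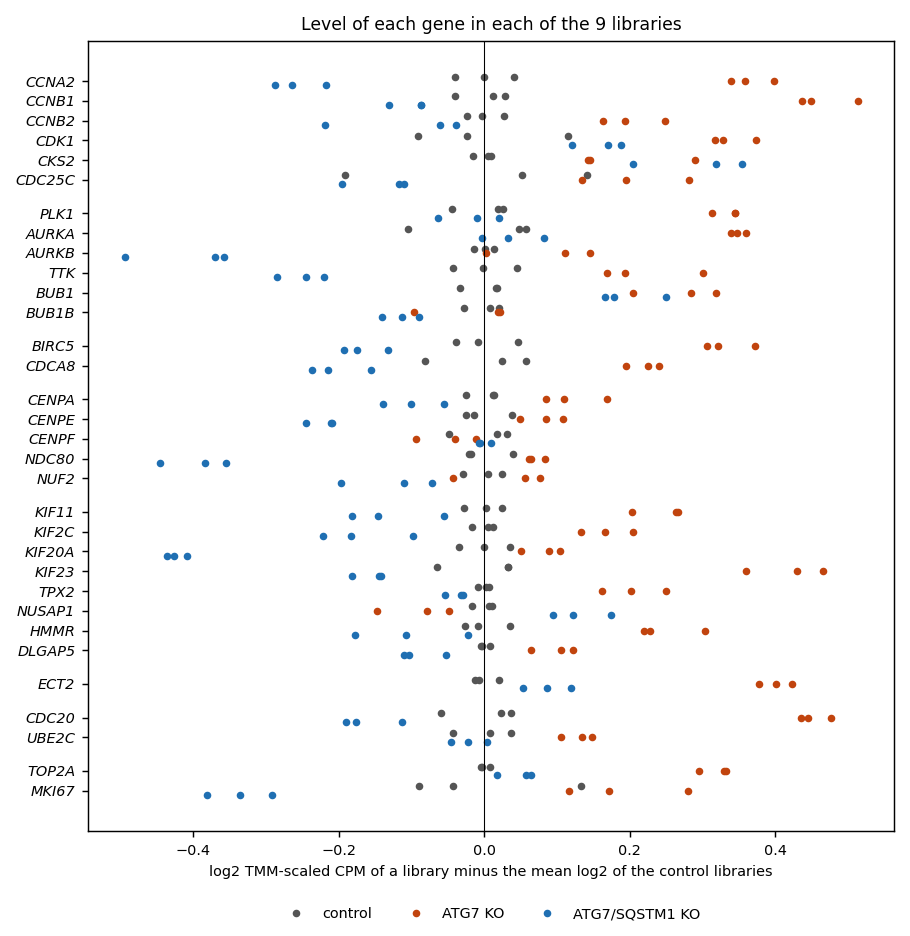
Log2 TMM-scaled CPM of each gene in each of the 9 libraries, minus the mean log2 of its control libraries, ordered by role. The ATG7 KO points lie wholly to the right of the control points for 25 of the 32 genes, and NUSAP1 shows the reverse order.

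Some of the 32 genes overlap expressed genes on the opposite strand. Since the strand setting of the counting is not stated, reads in the shared bases cannot be told apart. The shared bases were 293 of 3338 exonic bases in CDC25C, 254 of 2798 in CCNA2 and 200 of 3958 in KIF20A. FAM53C, opposite CDC25C, averaged 98.4, 95.3 and 96.9 CPM in control, ATG7 KO and the double knockout, well above CDC25C itself. EXOSC9, opposite CCNA2, averaged 67.7, 77.1 and 61.9 CPM. BRD8 and CDC23, opposite KIF20A, averaged 70.0 and 99 CPM in control and 59.1 and 85.2 CPM in the double knockout. The part of these reads in the values above was not tested.

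Levels per length show how the 32 genes rank in the control cells. In control, CKS2 was highest at 179 CPM per kilobase of exonic length, followed by TOP2A at 94.2, CDC20 at 85.3, UBE2C at 72.9 and CCNB1 at 69.9. CDC25C at 4.83, CENPE at 7.41 and KIF23 at 9.76 CPM per kilobase were lowest. Of the genes that rose most in ATG7 KO, CDC20 and CCNB1 were near the top of this order and KIF23 near its foot. The spread between libraries of a group was small, with a coefficient of variation under 5% for 28 of the 32 genes in each group.

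Regulators of these genes are a separate list of 19 factors. It holds FOXM1 and factors of the MMB and DREAM complexes, and also RB1, E2F7, E2F8 and the NF-Y genes NFYA, NFYB and NFYC. In ATG7 KO 6 rose (31.6%) and 5 fell (26.3%), near the 28.4% and 28.3% of all tested genes. In the double knockout against control 6 rose and 6 fell (31.6% each), beside 19.0% and 19.6% of all tested genes. In the range of levels of the 32 those shares were 25.6% and 28.5%. The list's median log2 changes were 0.06 and -0.01. MYBL2, the B-MYB subunit that turns these promoters on, averaged 140.4 CPM in control, 187 in ATG7 KO and 135 in the double knockout. It rose by 0.41 ± 0.034 in ATG7 KO (edgeR adjusted p = 1.20e-09), and its log2 difference in the double knockout was -0.05 (adjusted p = 0.263). FOXM1, named after its values were seen, averaged 107, 123 and 89.4 CPM, and rose by 0.20 ± 0.033 in ATG7 KO and fell by 0.25 ± 0.033 in the double knockout. RBL2, which encodes p130, the pocket protein of the repressive DREAM complex, averaged 132 CPM in control, 115 in ATG7 KO and 250.3 in the double knockout. RBL2 fell in ATG7 KO (-0.20 ± 0.030) and rose by 0.92 ± 0.030 in the double knockout, where its change from control was the largest of the 19 (edgeR adjusted p = 9.55e-16). E2F4, the E2F of the same complex, rose in both knockouts, by 0.35 ± 0.033 and 0.40 ± 0.033. TFDP2, a dimer partner of E2F factors, fell by 0.24 ± 0.026 in ATG7 KO and rose by 0.13 ± 0.026 in the double knockout.

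Other genes of cell division were read in 9 further lists, given with counts of genes that rose and fell. Of 18 other mitotic entry and exit kinases, phosphatases and cyclins, 12 rose (66.7%) and 2 fell in ATG7 KO. In the double knockout against control 2 rose and 6 fell (33.3%). CDC25B, a phosphatase that starts CDK1 activation, rose by 0.52 ± 0.031 in ATG7 KO (edgeR adjusted p = 5.37e-12), from 107 to 153 CPM, and was at 109 CPM in the double knockout. ENSA, an inhibitor of the phosphatase that opposes CDK1, fell in both knockouts, by 0.44 ± 0.023 and 0.32 ± 0.023. Of 17 APC/C subunits and inhibitors, 11 rose (64.7%) and none fell in ATG7 KO, while 2 rose and 9 fell (52.9%) in the double knockout. Scaled by library totals alone, 6 rose in ATG7 KO. CDC27, a core subunit, averaged 141 CPM in control, 175 in ATG7 KO and 124 in the double knockout, and FBXO5, which encodes the inhibitor EMI1, averaged 52.6, 62.0 and 44.5 CPM.

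Of 20 outer kinetochore and checkpoint genes, 9 rose and 2 fell in ATG7 KO, and 1 rose and 13 fell in the double knockout. MAD2L1, which encodes the checkpoint protein MAD2, rose by 0.36 ± 0.036 in ATG7 KO (edgeR adjusted p = 1.86e-08) and its log2 difference in the double knockout was 0.00. SKA3, of the complex that tracks microtubule ends, averaged 37.6 CPM in control, 38.7 in ATG7 KO and 24.9 in the double knockout, where it fell by 0.59 ± 0.049 (edgeR adjusted p = 3.70e-09). Of 19 inner kinetochore genes, 8 rose (42.1%) and 1 fell in ATG7 KO. In the double knockout 1 rose and 6 fell (31.6%), and the 6 became 3 without control replicate 1. The 42.1% and 31.6% were near the shares of 43.1% and 28.5% in the range of levels of the 32. CENPN, which binds CENPA nucleosomes, averaged 60.9, 83.2 and 46.6 CPM, and fell by 0.83 ± 0.037 between the knockouts (edgeR adjusted p = 4.06e-14). CENPT, of the same list, rose by 0.46 ± 0.038 in the double knockout against control and did not pass in ATG7 KO.

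Of 20 other spindle genes, 11 rose (55%) and 6 fell (30%) in ATG7 KO, and 1 rose and 8 fell (40%) in the double knockout. Without ATG7 KO replicate 3 the 6 lower became 3. TACC3, a spindle-stabilising protein, averaged 69.1, 92.0 and 61.8 CPM, while NUMA1, a protein of the spindle poles, fell in both knockouts, by 0.43 ± 0.031 and 0.36 ± 0.031. Of 10 cytokinesis and passenger genes, 5 rose (50%) and 2 fell (20%) in ATG7 KO, and 1 rose and 4 fell (40%) in the double knockout. ANLN, the furrow scaffold anillin, rose by 0.64 ± 0.030 in ATG7 KO (edgeR adjusted p = 1.01e-13), from 138 to 214 CPM, and stood at 133 CPM in the double knockout. SHCBP1 instead rose in both knockouts, by 0.68 ± 0.038 in ATG7 KO and 0.50 ± 0.038 in the double knockout. Of 20 condensin, cohesin and separase genes, 9 rose and 1 fell in ATG7 KO, and 3 rose and 11 fell in the double knockout, with 1 higher without double knockout replicate 2. The 1 lower in ATG7 KO, CDCA5, was lost under most alternatives. NCAPH, a condensin subunit, averaged 58.1, 79.7 and 54.4 CPM.

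Genes of the earlier cell cycle phases were read too. Of 30 genes of G1/S and DNA replication, 20 rose and 3 fell in ATG7 KO, with a median log2 change of 0.17, and 5 rose and 9 fell in the double knockout, with a median of -0.04. RRM2, the ribonucleotide reductase subunit that is made in S phase, averaged 247 CPM in control, 374 in ATG7 KO and 209 in the double knockout. ORC6, of the origin recognition complex, averaged 49.0, 66.3 and 97.2 CPM and was highest in the double knockout, where it rose by 0.99 ± 0.037 (edgeR adjusted p = 1.16e-14). Of 7 cell cycle inhibitors, 3 rose and 3 fell in ATG7 KO (42.9% each), and 2 rose (28.6%) and 1 fell (14.3%) in the double knockout. CDKN1A, which encodes p21, averaged 255 CPM in control, 136 in ATG7 KO and 207 in the double knockout, a fall of 0.91 ± 0.038 in ATG7 KO (edgeR adjusted p = 2.59e-13) and of 0.30 ± 0.037 in the double knockout. CDKN1B, which encodes p27, fell by 0.48 ± 0.040 in ATG7 KO and its log2 difference in the double knockout was 0.04.

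Between the knockouts, more genes fell than rose in each of these lists except the inhibitors, beside 29.9% lower and 30.5% higher over all tested genes. In the double knockout against ATG7 KO, 17 of 30 G1/S genes (56.7%) and 6 of 10 cytokinesis and passenger genes (60%) fell. So did 16 of 20 condensin and cohesin genes (80%), 14 of 20 outer kinetochore genes (70%) and 14 of 17 APC/C genes (82.4%). The APC/C count became 9 without double knockout replicate 2. Among the 19 transcription factors 9 fell (47.4%, near the share in that range of levels) and 4 rose, with RBL2 highest at 1.12 ± 0.030. Of the 7 inhibitors 3 rose and 2 fell, CDKN1A among those that rose (0.61 ± 0.038).

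**Figure D5:**
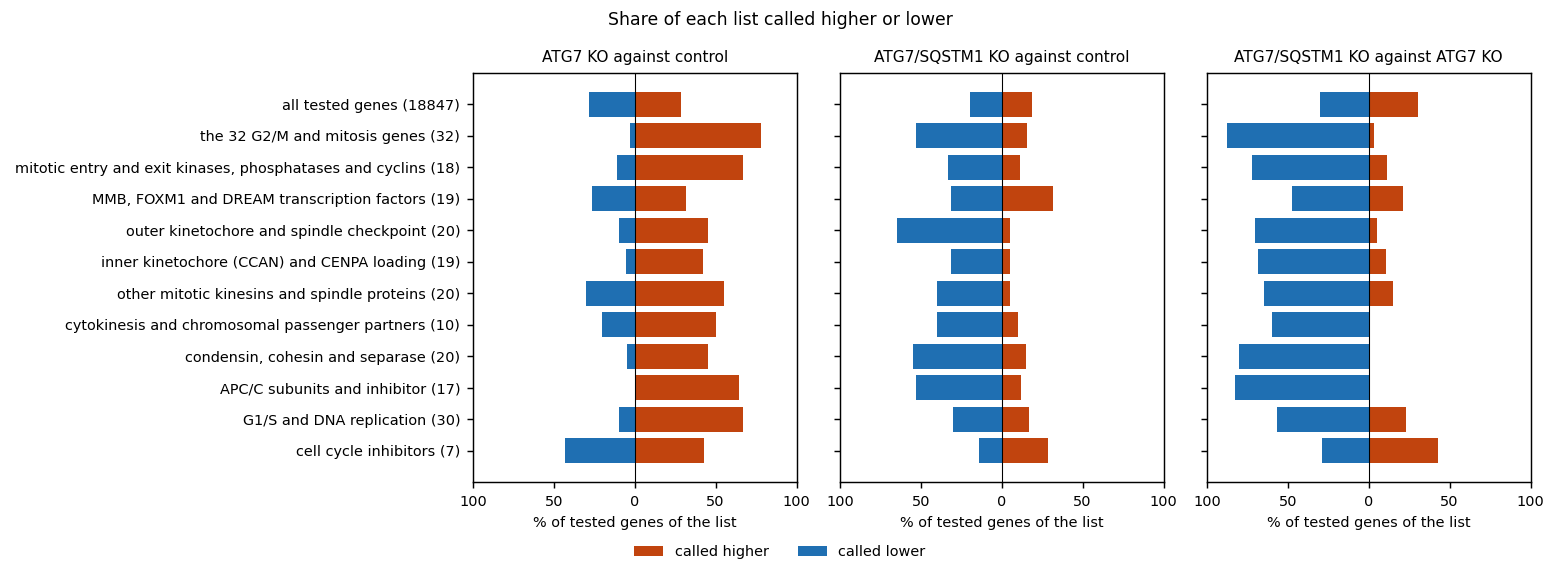
Share of tested genes called higher (right, red) and lower (left, blue) in each list, in percent, for the 3 comparisons, with the number of tested genes in brackets. The 32 genes are 78.1% higher in ATG7 KO and 87.5% lower in the double knockout against ATG7 KO, beside 28.4% and 29.9% of all tested genes.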

How the data were processed

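RNA from 9 libraries was sequenced after rRNA depletion, with dUTP marking of the second strand, per the labels' protocols. The submitters' processing notes name HISAT2 and hg38. Their versions, the counting program and whether it used strand are not given in the sources here. The authors deposited raw counts, as whole numbers for each gene, and empty cells were read as 0. Counts were tested with edgeR 4.0.16 in R 4.3.3: filterByExpr by group (minimum count 10) left 18847 genes, libraries were scaled by TMM, and all 9 libraries entered a robust quasi-likelihood fit (6 residual degrees of freedom), with Benjamini-Hochberg adjustment over all tested genes and a threshold of 0.05. CPM are TMM-scaled, and levels per kilobase use GENCODE 29 exonic lengths. Intervals of single log2 changes are unadjusted 95% intervals. The common biological coefficient of variation of the fit was 6.39%. The genes described here had median coefficients of variation of 2.38% in control, 2.67% in ATG7 KO and 2.81% in the double knockout. These medians include counting error, and its part in the precision was not separated. Replicate pairs differed by more than sampling (chi-square per degree of freedom 4.47 to 7.03). Promoter letters were searched in RefSeq windows.

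The fit was checked on simulated counts with known changes, in which few genes changed and all had the same spread. Recovery was required only for changes of at least 1.5-fold. None of the 32 genes reached that against control, so the check set no recovery requirement for changes of their size. The 32 genes and all lists were chosen with earlier results of these data known. All 32 are named. Levels in every library are given for genes called in all 3 comparisons, the 3 largest and 2 smallest changes per comparison and called genes opposite to the majority. From the other lists, genes with the 2 smallest p per comparison could be named. DESeq2 1.42.0, other scalings, filters, sample sets, a replicate block and leaving out each library were the alternatives. Of the 32 genes, 3 share exonic bases on the same strand with another gene and 8 on the opposite strand, and 7 have named pseudogenes.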

Additional observations from a re-analysis of the deposited data

How the results depend on the processing

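None of the 1632 alternative values of single genes among the 32 reversed a call, and 1539 kept both call and direction. In ATG7 KO against control the count of higher genes was 27 with relative log expression factors and 20 with library totals, which moved the median over all tested genes to -0.06. The count of lower genes there was 2 with library totals, 0 with no low-count filter and 0 to 2 when single libraries were left out. The median log2 change of the 32 genes in that comparison was 0.16 with library totals and 0.20 to 0.24 over the left-out libraries. In the double knockout against control that median ran from -0.13 to -0.10 over the left-out libraries. In the double knockout against ATG7 KO the count of higher genes was 3 with library totals, 2 with a mean of at least 1 CPM and 1 to 2 over the left-out libraries. Same-numbered libraries showed no shared deviation, with correlations of -0.061 to 0.023 over the tested genes and 2 of 18 best matches to the own number. The check cannot tell whether same-numbered libraries were prepared together. With the replicate block 23 genes were higher and 1 lower in ATG7 KO against control, where CENPA and KIF20A no longer passed. Against control the double knockout then had 5 higher and 17 lower, with NUF2 lost and CCNB2 gained, and against ATG7 KO it had 1 and 28. DESeq2 gave 26 and 1, 5 and 16, and 1 and 28 in the same order of comparisons. The summed level, computed with other scalings chosen after seeing the data, was 4176.5, 4758.5 and 3983.7 CPM with library totals and 4116.2, 4873.6 and 3946.4 with relative log expression factors for control, ATG7 KO and the double knockout. Restricting the promoter search to the 250 bases before the start left a CHR in 16 of 27 genes. Of 1020 counts in the other lists under these alternatives, 979 stayed within 1.5 times, and most others were counts of 1 or 2 genes that moved by 1. Each of the 32 genes had at least 408 counts in every library, and the part of counting error in their precision was not separated.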
